A study of Mus musculus with 6 samples.

Results

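Kap and 5 further genes of the renal androgen axis were followed through RNA-seq of 6 mouse kidney libraries. The 6 genes were Kap, Odc1, Gusb, Aoc1, Srd5a1 and Srd5a2, taken by symbol from the 51804 gene symbols of the deposited table, and all 6 were found there, with 25 of its 128603 transcripts. The genes were selected on values of these libraries, Kap by its counts in the labelled knockouts and controls, so the members' differences between groups are given as a description, and no p-value of a member is given or used as support. The genotypes were Ccnb1f/f;Cdh16-Cre in 3 libraries (labelled knockout) and Ccnb1f/f without the transgene in 3 (control), so all 6 carried the floxed Ccnb1 alleles. Cyclin B1, the product of Ccnb1, drives mitosis together with Cdk1, and the study asked what its loss from tubular epithelium does to kidney ageing and fibrosis. The Cdh16 promoter drives Cre in tubular epithelium. The labels used here state no age, sex or strain, nor whether each replicate is an animal of its own, so p-values cover only the spread among these libraries, part of which may be technical.

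Androgens, testosterone and the more potent dihydrotestosterone, act on the proximal tubule by changing transcription. In the mouse kidney this makes the tubule of males differ from that of females in many transporters and enzymes. Kap, the kidney androgen regulated protein, is a small secreted product of the proximal tubule and one of its classical androgen-induced transcripts, and its promoter has been used to direct transgenes to that segment. Odc1 (ornithine decarboxylase, the rate-limiting enzyme of polyamine synthesis) and Gusb (the lysosomal beta-glucuronidase) are the other textbook androgen-induced genes of mouse kidney. Aoc1 encodes diamine oxidase, which breaks down putrescine and histamine. Srd5a1 and Srd5a2 encode the steroid 5-alpha-reductases that turn testosterone into dihydrotestosterone.

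The libraries held 16061435 to 21261226 estimated counts each. The targeted gene did not check the labels: Ccnb1 had 11, 17 and 7 counts in the controls and 18, 15 and 11 by label in the knockouts. All 6 libraries held Y-linked transcripts (4 genes, summed level 148 to 197 CPM), and Xist lay between 0.058 and 0.415 CPM. CPM scales counts by library total and edgeR's TMM factors, except where scaling by library total only is stated. Markers of proximal tubule, distal nephron and podocytes were present in every library. The proximal tubule genes summed to 30076 to 34734 CPM by label in the knockouts and 26400 to 37724 in the controls. The 9 adrenal cortex genes summed to 3.92 to 7.40 CPM, with Star at 45 to 94 counts, Akr1b7 at 14 to 49 and Cyp17a1 at 1 to 6 in each library, and with Cyp11b1, Cyp11b2 and Nr5a1 at 0 in all 6. Control 2 stood apart from the other 5 libraries, at -39.8 on the first principal component against -1.99 to 13.6. It was the lowest of the 6 libraries in 22.9% of the 15017 genes tested and the highest in 23.8%, where the other libraries reached at most 18.7% and 17.9%. This library decides several of the differences below, which are therefore also given without it.

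Kap has a pair of annotated transcripts, and the deposited counts fell almost entirely on one of them. The gene (ENSMUSG00000032758) lies on the minus strand of chromosome 6, 133849851 to 133853762, GRCm38. Kap-201 (707 exonic bases in 4 exons) and Kap-202 (464 exonic bases) both code for protein and differ in their outer ends and at the start of exon 2, where Kap-201 holds 51 further coding bases, or 17 codons in frame. Those bases are printed because they separate the 2 coding sequences of 363 and 312 bases. They lie on chromosome 6, 133852044 to 133852094, and stand in capitals between the last 10 bases of exon 1 and the next 10 bases of exon 2, as in the GENCODE M21 transcript.
Kap-201: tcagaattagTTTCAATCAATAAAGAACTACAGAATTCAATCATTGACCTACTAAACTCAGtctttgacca
The RefSeq start of the gene (position 133853667, GRCm38.p6) is preceded by the letters TATAAA. They are shown because Kap was the only one of the members whose start windows held them. The capitals mark these letters, whose first base lies 31 bases upstream of the RefSeq start, in the stretch chr6:133853681-133853710 on the minus strand. Kap-201, however, begins further upstream, at 133853762. The stretch therefore lies inside exon 1 of Kap-201 as annotated, not upstream of that transcript.
Kap: gagtacaggatgTATAAAagcccaggagga
TATAAA was searched on the strand of the gene in windows from 250 bases before to 50 after each RefSeq start, and 8.32% of 32851 such windows held it. The half-site of the steroid response element, AGAACA on either strand, was in 19.0% of all windows and in none of the 7 windows of the 6 members. The full site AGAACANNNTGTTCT on either strand was in 3 of all windows, none of them of a member. These counts say only which letters lie in these short windows.

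Kap was the most abundant transcript per length in every control and was listed at 0 in every library labelled knockout. The controls held 270761, 172207 and 284320 estimated counts of Kap, or 1.58%, 0.926% and 1.61% of all counts. In FPKM, which scales counts by transcript length and library total, the level was 22397, 13100 and 22759 in controls 1, 2 and 3, rank 1 of all genes in each. By counts Kap ranked 1 in controls 1 and 3 and 3 in control 2. The libraries labelled knockout held 0 counts of either transcript among 54629122 counts, so the groups did not overlap, and control 2 was the lowest of the controls.

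Scaled to library size with edgeR's TMM factors, Kap stood at 16435, 8727 and 16609 CPM in the controls, or 13923 ± 4501 CPM (SD, n = 3). The deposited table does not show whether an exact 0 in the estimated counts of so abundant a gene is a measured count or an estimate that failed, and this was not tested, since the reads were not analysed here. Taken as a measured count, 0 allows up to 3 counts, which is 0.138 to 0.189 CPM in the libraries labelled knockout. Against that limit, and only if the 0 is a measured count, the lowest control was at least 46000-fold higher. These limits speak of counting error alone, because reads carrying no molecular identifier can be copies of 1 molecule. In whole tissue, fewer cells that make a transcript and less of it per cell cannot be told apart.

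In edgeR's quasi-likelihood test (adjusted p under 0.05), 1 of 6 members, Kap, passed as lower and none as higher, beside 0.0133% of all 15017 genes in either direction, 0.00666% lower and 0.00666% higher by label in the knockouts. Kap was also the 1 member whose groups did not overlap in CPM, beside 8.18% of all genes. Both counts follow from how Kap was picked, and nothing is read from them.

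Of its 2 transcripts, Kap-201 (ENSMUST00000048032) held 270557, 172126 and 284101 counts in controls 1, 2 and 3 and 0 in each library labelled knockout. Kap-202 (ENSMUST00000203168), without the 51 bases printed above, held 204, 81 and 219 counts in the controls and 0 in the rest. The shorter form was therefore 0.0753%, 0.0469% and 0.077% of the gene's counts. Reads shared by the forms were divided by the authors' counting, so this share is an estimate.

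**Figure D1:**
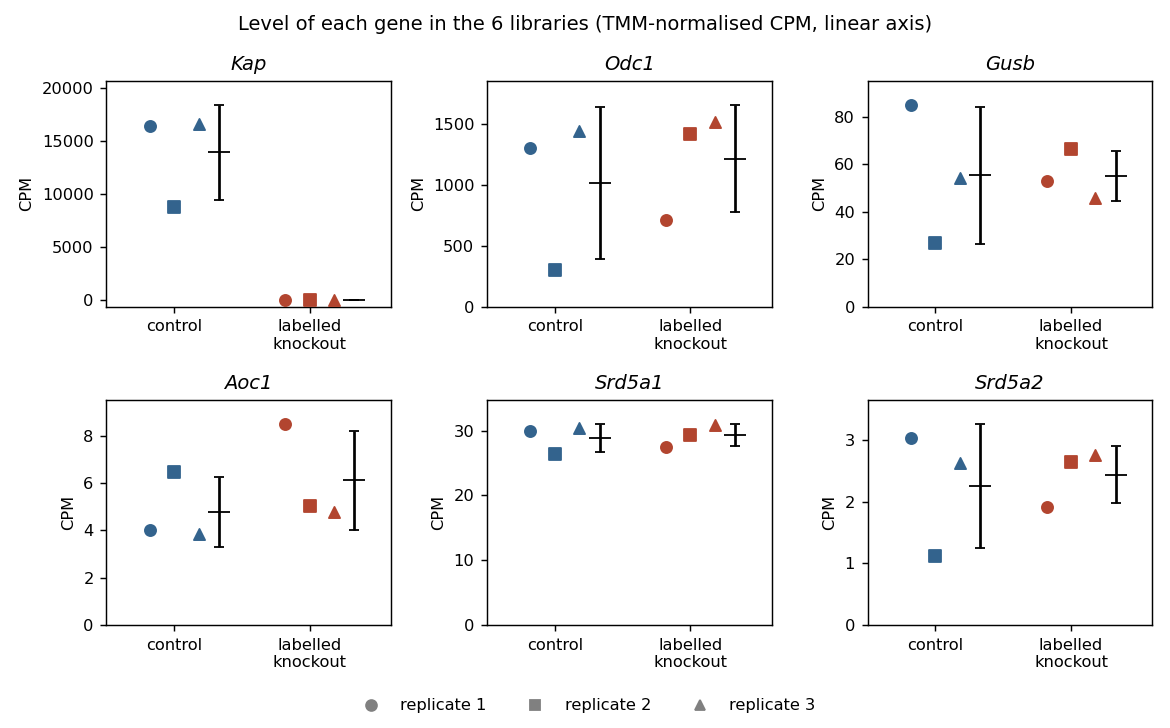
Level of each of the 6 genes in TMM-normalised CPM (vertical axis, linear) in the 3 controls (blue) and the 3 libraries labelled knockout (red); marker shapes give the replicate number, and bars show the mean ± SD of 3 libraries. Kap lies between 8727 and 16609 CPM in the controls and at 0 in the others, while for Odc1, Gusb, Aoc1, Srd5a1 and Srd5a2 the groups overlap.

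No other abundant gene came near this pattern. Of 166 genes with at least 10000 counts in each control, the next lowest after Kap was Hspa5, an endoplasmic reticulum chaperone gene. It had 14945, 12253 and 10869 counts by label in the knockouts and 18636, 13991 and 18910 in the controls. Its ratio of mean CPM, here scaled by library total only, was 0.734. The smallest count of any of the other genes in a library labelled knockout was 8098, of Hdlbp. These genes were singled out after their values were seen.

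The genes most like Kap, by 0 counts in all 3 libraries labelled knockout and the highest minimum in the controls, were far rarer. Lrrc14b had 7, 13 and 12 counts in the controls, Sez6l had 4, 3 and 4, and Asic4 and Gm10356 had no more than 4 in any. Of 52 genes with this pattern and a count in every control, Kap was the 1 with at least 10 counts in each. In the opposite direction, 55 genes were at 0 in all controls and present in all libraries labelled knockout, and 3 of them had at least 10 counts in each. These were Gm9929 (16, 33 and 19 counts), Ifi206 (16, 24 and 17), a gene of the interferon-inducible Ifi200 family, and Gm10522 (16, 11 and 11), all on chromosome 1.

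**Figure D2:**
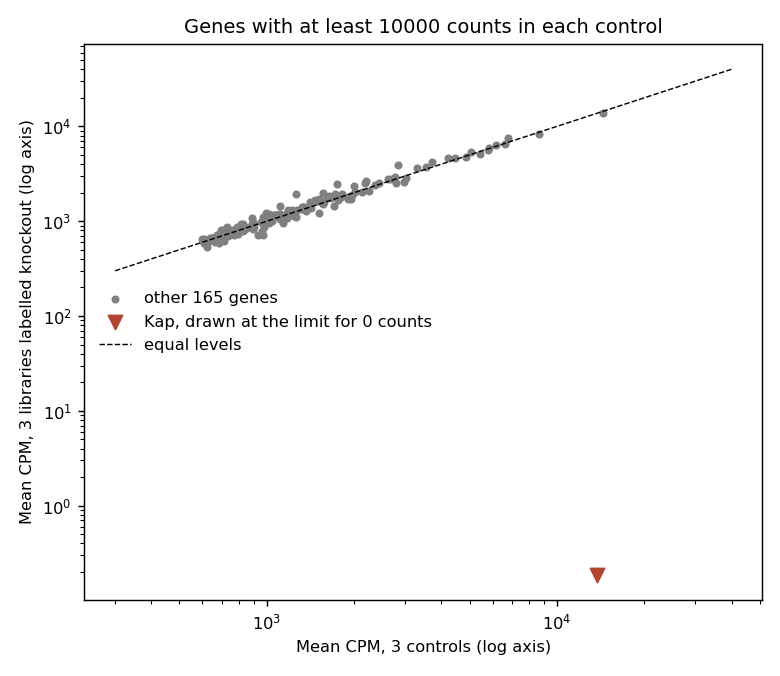
Mean CPM (library totals, no further scaling) in the 3 controls (horizontal, log axis) and in the 3 libraries labelled knockout (vertical, log axis) for the 166 genes with at least 10000 counts in each control; the dashed line marks equal levels. The other 165 genes lie along the line, with ratios between 0.734 and 1.52, and Kap is drawn at the limit that a count of 0 allows.

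The neighbourhood of Kap was nearly silent. Of 19 annotated genes within 500 kb, 12 had no count in any library, and apart from Etv6 none exceeded 14 counts in any. Etv6, a transcription factor gene 182 kb away, had 1085, 979 and 1226 counts by label in the knockouts and 924, 1426 and 967 in the controls. Its groups overlapped. Gm8956, a predicted gene at 77.8 kb, had 4, 11 and 14 counts against 10, 10 and 8.

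Odc1 (ENSMUSG00000011179, chromosome 12, 17544794 to 17551505) stayed abundant in the libraries labelled knockout and varied more within each group than between them. It stood at 711, 1416 and 1522 CPM by label in the knockouts and at 1307, 299 and 1443 CPM in the controls. Control 2 was the lowest library and knockout 1 the next, and the groups overlapped. The means were 1216 ± 441 and 1017 ± 625 CPM (SD, n = 3 each), a log2 fold change of 0.26 (SE 0.53), or -0.18 without control 2. Per length, Kap exceeded Odc1 by 38.8, 89.7 and 35.3 times in controls 1, 2 and 3. In control 2, therefore, Odc1 was lower relative to Kap than in the other controls.

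Most Odc1 counts belonged to the coding transcript Odc1-201, with 91.0% to 94.5% of the gene's counts in each library. A further 5.16% to 8.96% fell on the pair annotated as targets of nonsense-mediated decay, and at most 0.451% on the 5 forms with a retained intron. The share of Odc1-201 was 92.5%, 92.7% and 93.6% by label in the knockouts and 91.0%, 94.5% and 93.8% in the controls, so the groups overlapped here too.

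Gusb (ENSMUSG00000025534, chromosome 5, 129989011 to 130003049) had 52.9, 66.4 and 45.8 CPM by label in the knockouts and 84.9, 26.9 and 54.1 CPM in the controls. The highest and the lowest library were both controls, and control 2 was again the lowest. The means of 55.0 ± 10.5 and 55.3 ± 29 CPM (SD, n = 3 each) gave a log2 fold change of -0.01 (SE 0.36), which was -0.34 without control 2 and 0.44 without control 1. Its main coding transcript Gusb-201 held 91.2% to 96.2% of the counts.

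Aoc1 (ENSMUSG00000029811, chromosome 6, 48872896 to 48909188) was rare. It stood at 8.52, 5.05 and 4.80 CPM by label in the knockouts and 4.01, 6.49 and 3.86 CPM in the controls, with knockout 1 the highest and control 2, unlike for Odc1 and Gusb, the highest control. The log2 fold change was 0.35 (SE 0.31), and 0.04 without knockout 1. In control 2 alone, 80 of its 128 counts were assigned to Aoc1-204, a form with at most 0.0199 counts in each other library. Elsewhere Aoc1-201, which has the same coding length of 2268 bases, held 89.9% to 95.0% of the gene's counts, against 28.1% in control 2.

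The 5-alpha-reductases differed in level and in how much they varied. Srd5a1 (ENSMUSG00000021594, chromosome 13, 69573449 to 69611442) was the steadiest of the 6 genes, at 27.5, 29.3 and 30.9 CPM by label in the knockouts and 29.9, 26.4 and 30.4 CPM in the controls. The groups overlapped, with means of 29.3 ± 1.71 and 28.9 ± 2.18 CPM (SD, n = 3 each) and a log2 fold change of 0.02 (SE 0.11). Srd5a2 (ENSMUSG00000038541, chromosome 17, 74017706 to 74047916) had 1.91, 2.65 and 2.77 CPM by label in the knockouts and 3.03, 1.11 and 2.63 CPM in the controls, with control 2 the lowest of the 6. Its log2 fold change was 0.12 (SE 0.39), and -0.21 without control 2. Per length, Srd5a1 exceeded Srd5a2 by 3.77 to 4.91 times in 5 libraries and by 8.50 times in control 2.

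Ordered by FPKM in the controls, the members ran from Kap (19419 ± 5475) through Odc1 (456 ± 271), Gusb (21.4 ± 10.5) and Srd5a1 (12.4 ± 0.53) to Srd5a2 (2.60 ± 1.07) and Aoc1 (2.15 ± 0.826; all SD, n = 3). Kap and Odc1 stood clear of their neighbours in every control. Gusb and Srd5a1 changed places in control 2, and Srd5a2 and Aoc1 did not differ beyond their spread. In the libraries labelled knockout the order of the other 5 was the same, with Odc1 at 560 ± 205, Gusb at 21.5 ± 3.68, Srd5a1 at 12 ± 1.01, Srd5a2 at 2.86 ± 0.561 and Aoc1 at 2.61 ± 0.812 FPKM (SD, n = 3).

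Over the 6 libraries, the genes named here, whose log2(CPM + 1) followed each member most closely among 15016, had Pearson correlations of 0.983 to 0.997, which with 6 points is a description of these libraries. For Odc1 they were Ffar3 and Ddx52, and for Gusb Lrpap1, Tram1 and Nploc4. For Aoc1 they were Nr1i2, Gtf2a2 and Rab27a, for Srd5a1 2610524H06Rik, Plcxd2 and Gramd4, and for Srd5a2 Hsd17b2, Ldhd and Ppm1g. Hsd17b2 encodes a dehydrogenase that inactivates testosterone and estradiol, and ran at 13.8, 18.2 and 18.2 CPM by label in the knockouts and 20.2, 9.88 and 18.4 CPM in the controls. In the genes named for Odc1, Gusb, Srd5a1 and Srd5a2, as in those members themselves, control 2 was the lowest library. In the deposited annotation, androgen biosynthetic process was shared by Srd5a1 and Srd5a2 alone among the 6.

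Other genes that are higher in male than in female mouse kidney did not follow Kap. Of the 15 tested genes of that list other than the members, none passed the edgeR threshold, 14 stood above 0 and 1 below, and the median log2 fold change was 0.22, against -0.01 over all genes tested. Without control 2 the same 15 genes split into 7 above and 8 below 0, with a median of -0.06. The organic anion transporter gene Slco1a1 had 416, 856 and 551 CPM by label in the knockouts and 599, 68.4 and 483 CPM in the controls. Cyp4a12a, a fatty acid hydroxylase gene, had 382, 648 and 483 against 674, 144 and 482 CPM. Acsm3, a medium-chain acyl-CoA synthetase gene, had 1093, 1620 and 1181 against 1437, 134 and 957 CPM. In all 3 genes, which like Slc7a12 and Cyp4a14 were chosen after their values were seen, the libraries labelled knockout lay in the range of controls 1 and 3 or near it, and control 2 lay far below.

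The most abundant genes of the list were Acsm2 (log2 fold change 0.06, SE 0.44), Cyp4b1 (0.14, SE 0.27), Cyp2e1 (0.33, SE 0.18) and Cndp2 (-0.46, SE 0.52), each at an adjusted p of 0.9995 in the edgeR test. Cndp2, a dipeptidase gene, had 1115, 1358 and 1043 CPM by label in the knockouts against 2391, 416 and 2019 CPM in the controls. It was the 1 gene of the list with a negative fold change, and its mean by label in the knockouts was 0.532 of that of controls 1 and 3. For the 15 genes that ratio ran from 0.532 to 1.33, with a median of 0.957, while Kap was at 0. Cyp4a12a and Cyp4a12b, and the Acsm genes, are alike in sequence, and the authors' counting could divide reads among them.

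Control 2 was the lowest of the 6 libraries in all 15 of these genes, beside 22.9% of all genes tested. Its level was 0.112 to 0.846 of the mean of controls 1 and 3, with a median of 0.473. Among the members its level was 0.217 of that mean for Odc1, 0.386 for Gusb, 0.528 for Kap and 1.65 for Aoc1. This order was noticed in the data and has no test.

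Most genes higher in female mouse kidney ran the other way in control 2. It was the highest of the 6 libraries in 8 of 12, beside 23.8% of all genes, and the lowest in 2, Akr1c18 and Gstp1. Its level was 0.379 to 25.0 times the mean of controls 1 and 3, with a median of 2.50. Slc7a12, Cyp4a14 and Cyp2a5, given next, had the largest of these ratios. Slc7a12, an amino acid transporter gene, had 65.3 CPM in control 2, 2.25 and 2.98 in controls 1 and 3, and 9.79, 13.4 and 9.04 by label in the knockouts. Cyp4a14, a fatty acid hydroxylase gene, had 280 CPM in control 2, 12 and 17.9 in the other controls, and 42.5, 28.3 and 57.9 by label in the knockouts. In both genes the libraries labelled knockout lay between control 2 and the other controls. Cyp2a5, a drug-metabolising cytochrome gene close in sequence to Cyp2a4, had 641 CPM in control 2 and 78.2 to 112 in the other 5 libraries.

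None of the 12 female-biased genes passed the edgeR threshold. Their median log2 fold change was -0.38, with 4 above 0 and 8 below, and turned to 0.29 without control 2, with 10 above and 2 below. With all 6 libraries kept, the median was 0.06 with a replicate block. In limma it was 0.01 on log2(FPKM + 1) and 0.08 on log2(FPKM + 0.1). It stayed at -0.41 to -0.38 with other scalings, no filter, sums per gene ID and DESeq2. The most abundant were Cyp2a4 (0.19, SE 0.18), Hao2 (-0.57, SE 0.56), Cyp2a5 (-1.51, SE 0.70) and Gsta2 (-0.18, SE 0.33).

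Markers of nephron cell types also differed in control 2, but not evenly. The proximal tubule list summed to 26400 CPM there and to 35333 and 37724 in controls 3 and 1. Of its 23 genes, 12 were lowest in control 2 among the 6 libraries, while 9 of 12 distal nephron genes were highest there. Acsm2, also of the male-biased list, had 2168 CPM in control 2 against 6814 and 6519 in controls 1 and 3. Slc34a1 had 4545 against 6827 and 6115, Slc27a2 4315 against 4347 and 4749, and Lrp2 2789 against 3057 and 3104 CPM. Podocyte genes summed to 504 CPM in control 2 and 386 to 418 in the other 5. The part of these shifts in the levels of the members was not tested. Y-linked genes summed to 183 CPM in control 2, within the range of the other 5.

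**Figure D3:**
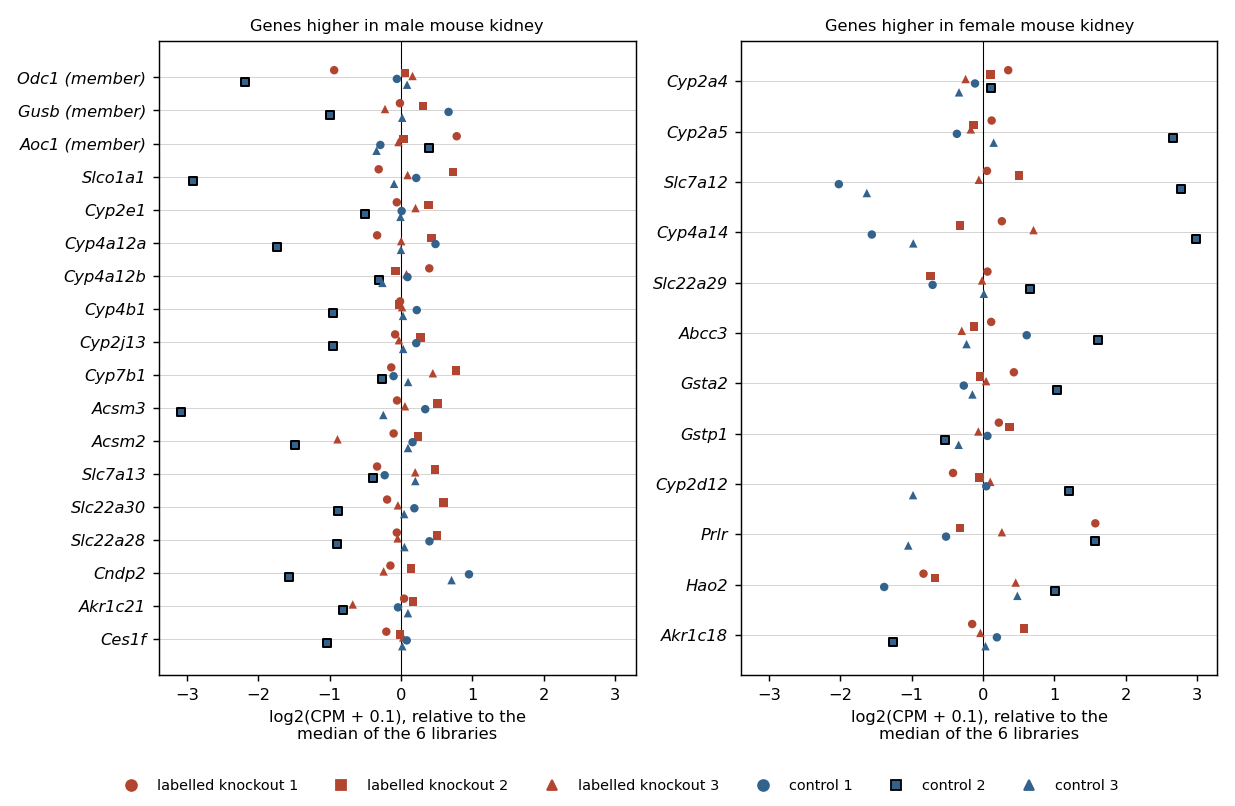
Level of each tested gene of the male-biased list (left, with the members Odc1, Gusb and Aoc1, without Kap) and the female-biased list (right) in each library, as log2(CPM + 0.1) relative to the median of the 6 libraries (horizontal axis); blue marks are controls, red marks libraries labelled knockout, and control 2 is outlined. Control 2 is the lowest library for all 15 male-biased genes that are not members. Among the 12 female-biased genes it is the highest for 8 and the lowest for 2.

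Transcription factor genes listed as regulators of Kap were expressed in every library. None of 12 tested regulators passed the edgeR threshold, with 5 above 0, 7 below and a median of -0.06, which turned to 0.02 without knockout 1 and 0.12 without control 3. The tubular transcription factor gene Hnf4a had 1149, 1513 and 1410 CPM by label in the knockouts and 1445, 1071 and 1470 CPM in the controls, with control 2 the lowest and the groups overlapping (log2 fold change 0.03, SE 0.17). The retinoid receptor gene Rxra (-0.06, SE 0.14) and the glucocorticoid receptor gene Nr3c1 (-0.20, SE 0.11) had negative log2 fold changes. The thyroid hormone receptor genes Thra (-0.06, SE 0.11) and Thrb (0.02, SE 0.14), the estrogen receptor gene Esr1 (0.20, SE 0.18) and Cebpa (0.20, SE 0.21) did not pass either.

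Chaperones and cofactors of steroid receptors gave 4 genes above 0 and 15 below among 19 tested, with a median of -0.16 and none past the threshold. The heat shock protein genes Hsp90ab1, whose product holds such receptors ready for their ligand, and Hspa8 were at -0.26 (SE 0.26) and -0.11 (SE 0.24). Hsp90aa1 (-0.23, SE 0.35) and Dnaja1 (-0.44, SE 0.36) were highest in control 3, at 1263 and 1056 CPM against 442 to 926 and 366 to 638 CPM in the other libraries.

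Enzymes of androgen metabolism stood mostly above 0, and none of 17 tested genes other than the members passed. There were 14 above 0 and 3 below, with a median of 0.13, or 0.08 without control 2. Akr1c21, a hydroxysteroid dehydrogenase gene of kidney, was the most abundant, with 1232, 1342 and 748 CPM by label in the knockouts and 1161, 679 and 1279 CPM in the controls (log2 fold change 0.09, SE 0.28). Cyp7b1, a steroid hydroxylase gene, was at 0.49 (SE 0.22) and Akr1c14, another hydroxysteroid dehydrogenase gene, at 0.48 (SE 0.21). Further dehydrogenase genes were Hsd17b11 (0.28, SE 0.32), Hsd17b4 (0.13, SE 0.10), Hsd17b12 (0.18, SE 0.12), Hsd17b10 (0.05, SE 0.09), Hsd17b7 (0.14, SE 0.14) and H2-Ke6, also called Hsd17b8 (0.07, SE 0.10). Hsd3b2 was at -0.21 (SE 0.26), and the genes of the enzymes that interconvert active and inactive glucocorticoids, Hsd11b1 and Hsd11b2, were at -0.42 (SE 0.42) and 0.01 (SE 0.13). Hsd17b3, Hsd17b6, Cyp19a1 and Sult2a8 had no count in any library.

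Around Odc1, the polyamine pathway had a median near 0. Of 23 tested genes other than Odc1 and Aoc1, 15 stood above 0 and 8 below, with a median of 0.06 (-0.02 without control 2) and none past the threshold. Antizyme and its inhibitor set the stability of ornithine decarboxylase. The antizyme genes Oaz1 and Oaz2 were at 0.06 (SE 0.13) and 0.17 (SE 0.11), and the inhibitor gene Azin1 at -0.27 (SE 0.13). Of the synthases, Srm was at -0.01 (SE 0.17), Sms at 0.07 (SE 0.12) and Amd1, which supplies the aminopropyl donor, at 0.09 (SE 0.12). Sat1, which acetylates polyamines for export or breakdown, was at 0.06 (SE 0.18), with 195 CPM in control 2 and 249 to 311 in the other libraries. Eif5a, whose product carries a residue made from spermidine, was at 0.09 (SE 0.13), and Dohh, which completes that residue, at 0.08 (SE 0.14). The polyamine transporter genes Atp13a3, Atp13a2 and Slc18b1 were at 0.15 (SE 0.12), -0.11 (SE 0.12) and -0.06 (SE 0.11), Slc3a2 at -0.11 (SE 0.10) and Mtap at -0.13 (SE 0.11).

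Around Gusb, other lysosomal glycosidase and sulfatase genes also had a median near 0. Of 25 tested, 18 stood above 0 and 7 below, with a median of 0.05 (-0.01 without control 2, 0.12 without control 1) and none past the threshold. The sialidase gene Neu1 was at 0.06 (SE 0.15), the sulfatase gene Arsb at 0.16 (SE 0.16), and the fucosidase gene Fuca1 at 0.09 (SE 0.13). In control 2 Gusb stood at 0.386 of the mean of the other controls, while this list summed to 3189 CPM there and 3474 to 3910 CPM in controls 3 and 1.

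Across all lists, 205 genes other than the members were tested and 0 passed the edgeR threshold, in that fit and in each of 15 alternative fits, DESeq2 and limma included. At an unadjusted p under 0.05 there were 12, or 5.85%, beside 3.23% of all genes tested. Named for that p alone, they were Hsd3b4 and Akr1c14 of androgen metabolism, Ncoa4 of the receptor cofactors, Aoc3, Hyal1, Aqp1 and Slc4a1, and 5 stromal genes, Col1a1, Dcn, Lum, Pdgfrb and Acta2.

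**Figure D4:**
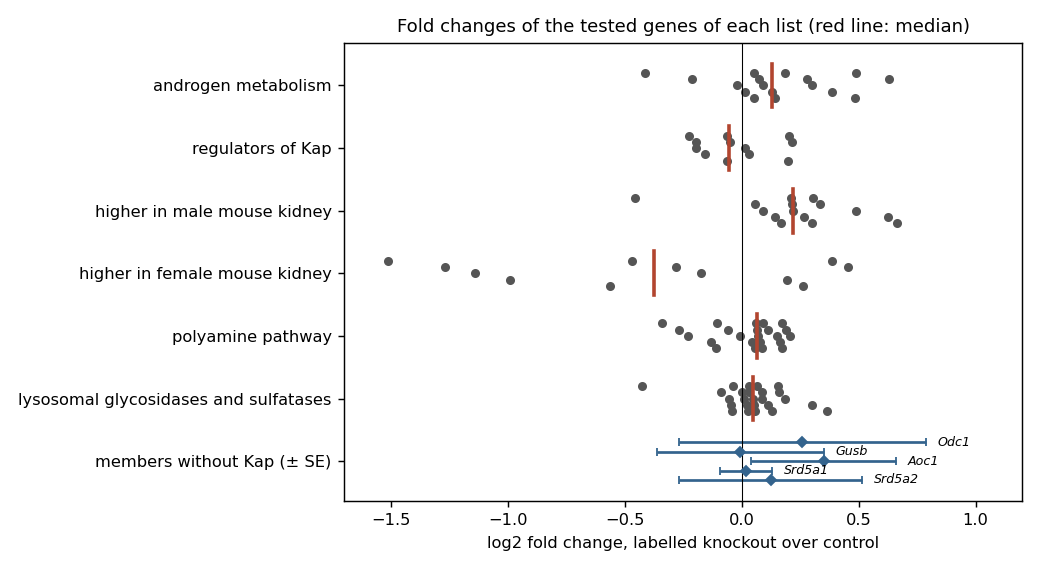
Log2 fold change, labelled knockout over control (horizontal axis), of each tested gene of 6 lists (grey points, one per gene, members left out) with the median of each list (red line), and of the 5 members other than Kap with their standard errors (blue). List medians lie between -0.38 and 0.22, and the standard error of 4 of the 5 members reaches across 0.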

How the data were processed

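The authors deposited estimated counts per transcript, not normalized, and FPKM values, which divide them by exonic length and column total (checked within 1 percent on 6 member transcripts). Per the submitters' processing notes, the tools were HISAT2 2.0.1, Cuffdiff 2.2.1, cutadapt 1.9.1, FastQC 0.10.1 and bcl2fastq 2.17.1.14 and the build GRCm38, in no stated role; which program counted, the library kit and its strandedness: not given in the sources used here. A deposited column of other values, the genomic span of each transcript, was not used as a length. Estimated counts were summed per symbol and rounded to whole numbers. edgeR 4.0.16 in R 4.3.3 tested 15017 genes by quasi-likelihood (TMM, minimum count 10, group as the only term, two-sided, Benjamini-Hochberg over all genes, threshold 0.05); the code was tested on simulated data. Fold changes are log2 of labelled knockout over control, with SE the fold change over the square root of F. Alternatives were DESeq2 1.42.0, limma 3.58.1 on log2(FPKM + 1) and log2(FPKM + 0.1), other scalings, no filter, sums per gene ID, a replicate block and each library left out. Sequences came from GENCODE M21 and RefSeq (GRCm38.p6), where all 6 members were found by symbol; the deposited span equalled that of GENCODE for 24 of 25 member transcripts, all but that of Srd5a2. The members, lists and naming rule (androgen metabolism, polyamine and Kap regulator genes at a mean of 20 CPM or more in either group; the 4 most abundant genes of other lists; list genes past the threshold; neighbours of Kap within 500 kb; up to 5 genes at 0 in 1 group, each way; 3 most correlated genes) were chosen with earlier results of these data known. Replicate numbers come from the titles. Sts was not analysed here, and a few genes meeting the naming rule are left out of the text.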

Additional observations from a re-analysis of the deposited data

How the results depend on the processing

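No list gene passed the threshold in any of 16 fits; Kap did in each, which its selection on these values fixes and which says nothing of stability. The count of genes past the threshold was 2 in edgeR and 1 with library totals without Kap, 5 without a filter on low counts, 14 with DESeq2, 1 with limma on log2(FPKM + 1) and 1 on log2(FPKM + 0.1), and it ran from 1 to 6 when single libraries were left out. The cause of these differences was not tested. The replicate block gave 2 genes; same-numbered libraries share only a number (correlations of deviations 0.104, -0.111 and 0.113), and not every library was most like its own number. The mean of Kap in the controls ran from 12581 to 16522 CPM without single controls. With single libraries left out, the log2 fold change ran from -0.18 to 0.60 for Odc1, -0.34 to 0.44 for Gusb, 0.04 to 0.64 for Aoc1, -0.04 to 0.06 for Srd5a1 and -0.21 to 0.39 for Srd5a2. Of 165 alternative values of member folds and list medians, 161 moved by less than 1 SD and 4 list medians by more. Those were regulators of Kap (0.02 without knockout 1, 0.12 without control 3), lysosomal genes (0.12 without control 1) and the polyamine pathway (-0.02 without control 2). The SD is that of single libraries within the groups in log2 units, 0.99 for Odc1 and 1.25 for the female-biased list. So wide a limit passes changes of sign, such as the female-biased median of -0.38, which was 0.29 without control 2 and 0.06 with the replicate block. The 161 are therefore no measure of stability. Depth limits Aoc1 and Srd5a2, with 22 to 147 counts a library.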

Other observations

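Amines other than the polyamines gave further values around Aoc1. Aoc3, the vascular amine oxidase gene, named after its values were seen like Prlr below, stood at -0.82 on the log2 scale (SE 0.28) with an adjusted p of 0.9995 in edgeR. Maoa was at 0.02 (SE 0.18), Hnmt, which methylates histamine, at -0.10 (SE 0.15), Hdc, which makes it, at 0.08 (SE 0.36) and Aldh9a1, an aminoaldehyde dehydrogenase gene, at 0.05 (SE 0.10). None of the 7 genes of this list other than Aoc1 passed the threshold, with 5 above 0 and 2 below. The prolactin receptor gene Prlr, one of the female-biased list, had 95.0 CPM in knockout 1 and 94.7 in control 2, against 15.4 to 38.3 in the other 4 libraries.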
